A study of Rattus norvegicus with 4 samples.

Results

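Gdf9 and Bmp15 encode growth differentiation factor 9 and bone morphogenetic protein 15, a pair of ligands that the oocyte secretes onto the somatic cells around it. Their expression was followed in rat ovaries cultured with or without anti-Müllerian hormone (AMH). The members were taken as every probe set whose only gene symbol in the platform annotation is Gdf9 or Bmp15, which gave 2 of the 14218 genes named on the array, with 1 probe set each among 31099. Both were among the 18625 probe sets tested, which were kept by their mean over the 4 arrays. Bmp15 passed that filter through its control values, since its AMH values lay under the limit given below. The AMH group was 2 pools of whole ovaries (Rattus norvegicus) taken on postnatal day 4 and cultured for 10 days with 50 ng/mL AMH, and the control group was 2 pools cultured for the same time with no AMH. Medium was the same in both groups, DMEM-Ham's F-12 with albumin, Albumax, transferrin, insulin, ascorbic acid and antibiotics, so the controls carried a high level of insulin too. Each pool held the RNA of about 10 ovaries, was described as independent and went on 1 Affymetrix array, which gave 4 arrays (n = 2 per group). Animals within a pool cannot be separated, and a whole ovary mixes oocytes with granulosa, stromal, vascular and blood cells.

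Both ligands belong to the TGF-beta family. GDF9 acts through the type II receptor BMPR2 and the type I receptor TGFBR1 and activates SMAD2 and SMAD3, while BMP15 acts through BMPR2 and the type I receptor BMPR1B and activates SMAD1, SMAD5 and SMAD9. In mice without Gdf9, follicles do not develop past the primary stage. AMH is a member of the same family that granulosa cells of growing follicles make, and the series title names the passage from primordial to primary follicle as the step it inhibits.

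The promoters are shown because both genes were lower in the same pools and are known oocyte genes. In mice, an E-box (CANNTG, the site of basic helix-loop-helix proteins such as FIGLA) in the proximal promoter of Gdf9 is needed for its expression in oocytes. RefSeq sequences on GRCr8 were found for both of the 2 members, each running from 250 bases before to 50 bases after a start site, 5′ to 3′ on the plus strand, with E-boxes in capitals. The Gdf9 window is chr10:38096301-38096600, and its start site lies 6530 bases inside the annotated gene (chr10:38090021-38100801). From that base the Gdf9 window reads atg, the letters of a start codon, and whether transcription starts there was not tested. Positions in the Gdf9 window therefore cannot be set beside those of the mouse promoter or of Bmp15. The Bmp15 window is chrX:18840693-18840992, and its start site is the first base of the gene (chrX:18840943-18846006).
Gdf9: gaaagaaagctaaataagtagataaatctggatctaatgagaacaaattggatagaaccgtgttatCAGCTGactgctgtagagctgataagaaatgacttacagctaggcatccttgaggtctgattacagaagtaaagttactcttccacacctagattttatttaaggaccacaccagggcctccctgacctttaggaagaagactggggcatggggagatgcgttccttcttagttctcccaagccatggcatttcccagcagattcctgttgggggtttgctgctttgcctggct
Bmp15: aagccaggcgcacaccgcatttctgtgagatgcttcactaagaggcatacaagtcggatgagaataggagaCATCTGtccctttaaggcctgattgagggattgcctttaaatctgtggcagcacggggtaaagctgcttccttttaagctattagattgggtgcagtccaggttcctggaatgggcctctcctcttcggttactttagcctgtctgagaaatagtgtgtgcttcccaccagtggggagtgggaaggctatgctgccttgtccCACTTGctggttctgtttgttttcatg
Gdf9 had 1 E-box, CAGCTG, at bases -184 to -179 from the start site, and Bmp15 had CATCTG at -179 to -174 and CACTTG at 24 to 29 after it. An E-box was present in 72.1% of the 33469 promoter windows in the same table, and at least 2 were present in 38.6%. Searched on both strands, TAATTG (8.2% of windows), TAATTA (5.36%) and TATAAA (14.2%) were not in either window. The nuclear receptor hexamer AGGTCA was in the Gdf9 window once, on the minus strand at -61 to -56 (16.2% of windows). A match is a string of letters here and not a measured site.

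The arrays differed by group in more than these genes. Of all tested probe sets 21.5% passed the test, 12.8% lower with AMH and 8.67% higher. Across tested probe sets the AMH arrays correlated at 0.955 with each other and the controls at 0.974, against 0.877 to 0.902 for pairs from different groups. The GAPDH 3′/5′ intensity ratio, which increases as RNA or its copy shortens, was 6.56 and 6.37 on the AMH arrays, against 1.17 and 1.27 on the control arrays. GAPDH itself gave log2 differences of -0.32 at its 3′ probe set, -1.33 in the middle and -2.68 at its 5′ probe set. Beta-actin gave -2.36 at its 3′ probe set, a larger fall than that of Gdf9 below, and -3.82 at its 5′ probe set. Its 3′/5′ ratio was 10.7 and 14.4 on the AMH arrays, against 3.17 and 4.60 on the control arrays. Chip names end in 1 of 2 strings, and neither string occurs in both groups, so that whatever these mark and the treatment cannot be told apart.

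Gdf9 fell strongly with AMH. Its probe set intensity, on the linear scale as deposited, was 453.7 and 317.7 in the AMH pools, against 1724.9 and 1732.5 in the control pools. The AMH pools lay well below both controls, and the lowest control was 3.8-fold above the highest AMH pool. The mean was 385.7 ± 96.2 with AMH and 1729 ± 5.37 in control (SD, n = 2 each), so that the AMH pools had 22.3% of the control mean. On a log2(intensity + 16) scale, the AMH pools minus the controls gave -2.14 ± 0.19 (SE), with a 95% interval of -2.56 to -1.72 and an adjusted p of 0.00051 (limma, two-sided, Benjamini-Hochberg over all tested probe sets, with an adjusted p under 0.05 counted as called). The controls agreed closely for Gdf9, with a ratio of 1.004 between them, and the AMH pools were 1.43-fold apart.

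Bmp15 fell to a level near the floor of the arrays. It gave 22.6 and 22.3 in the AMH pools, against 147.5 and 115.2 in the control pools. Both AMH values lay below 27.8, the intensity under which probe sets were left out as dim, and the lower control was 5.1-fold above the higher AMH pool. The mean was 22.4 ± 0.21 with AMH and 131.4 ± 22.8 in control (SD, n = 2 each). With the AMH values set to 27.8, Bmp15 was at least 4.69-fold lower than in control. That limit is the cut of the filter and not a detection limit, so the bound rests on the filter chosen. The fitted log2 difference was -1.93 ± 0.23 (SE, adjusted p = 0.00155, same limma fit). It is set in part by the constant of 16, being -2.49 with 1 added and -1.17 with 64, so that it ranks Bmp15 against no other gene.

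**Figure D1:**
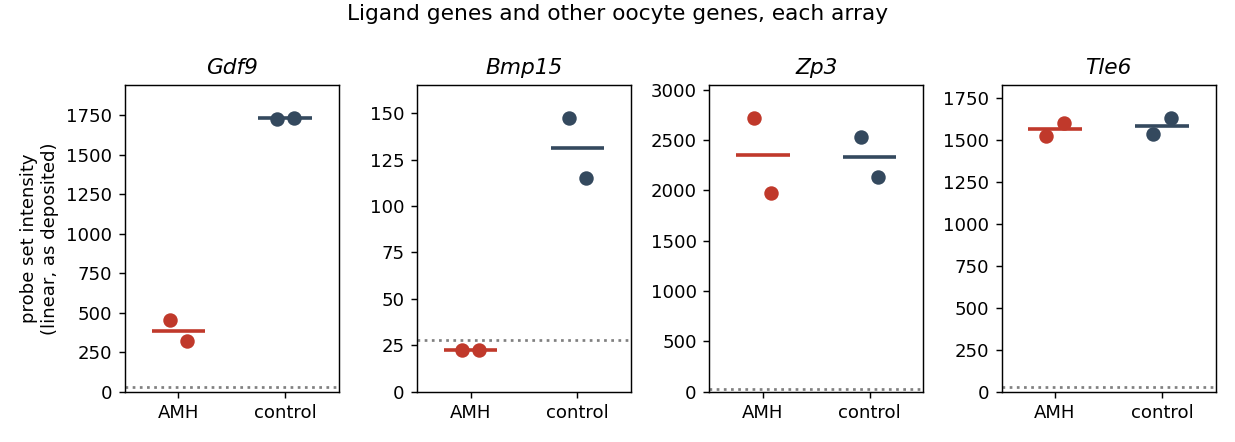
Probe set intensity (linear scale, as deposited) of Gdf9, Bmp15, Zp3 and Tle6 on each array, AMH in red and control in dark blue, with points for the 2 pools of a group, a bar at their mean and a dotted line at the dim limit of 27.8. Gdf9 and Bmp15 lie below both controls in both AMH pools, the AMH values of Bmp15 lie under the dotted line, and the groups overlap for Zp3 and Tle6. Of the 12 other oocyte genes tested, 6 were called lower, 1 higher and 5 neither. Zp3 and Tle6 are among those not called, and the genes called lower are not drawn.

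Both of the 2 members were called lower, where 12.8% of the tested probe sets were. In both the groups did not overlap in that direction, as held for 31.2% of the tested probe sets. Bmp15 is in these counts only because its control values passed the filter. A change as low as that of Gdf9 was found in 100 of the 18625 probe sets (0.537%). Counted by gene at the brightest probe set, 39 of 10622 genes were as low, Gdf9 included. In whole ovaries, fewer oocytes and less of a transcript per oocyte cannot be told apart.

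**Figure D2:**
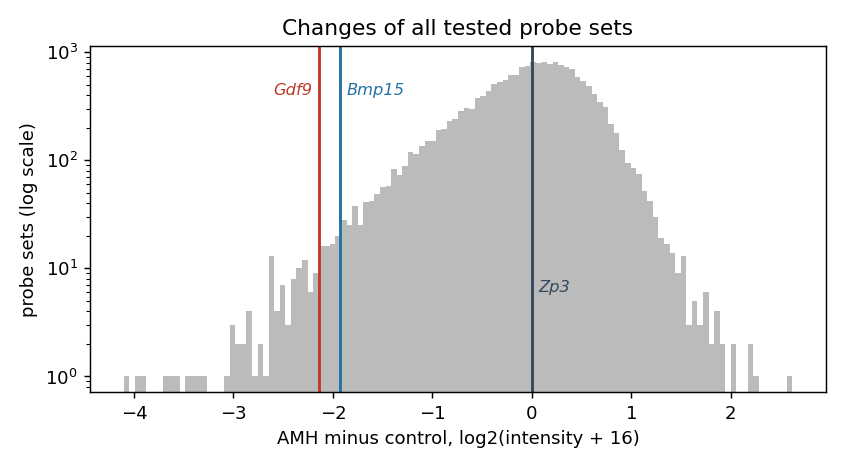
Number of tested probe sets (log scale) by log2 difference, AMH minus control, with lines at Gdf9 (-2.14), Bmp15 (-1.93 with the constant of 16) and Zp3 (near 0). Gdf9 lies in the lower tail, with 0.537% of probe sets at or below it, and Bmp15 lies there too at a place that moves with the constant.

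Each gene has a single probe set, so no second probe set can be set beside it. Among the 2609 genes with several tested probe sets, the log2 differences of the brightest pair were apart by a median of 0.57, with quartiles of 0.27 and 0.99, and 90% of pairs were within 1.42. Some pairs were further apart, such as those of Id2 and Col1a1 given below. The part of the probe set's place and of the 3′/5′ shift in the falls of Gdf9 and Bmp15 was not tested.

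Whether one ligand gene fell more than the other could not be told. The log2 value of Gdf9 minus that of Bmp15 was 3.61 and 3.12 in the AMH pools, against 3.41 and 3.74 in the control pools, and the groups overlapped. The difference between the changes was -0.21 (exact permutation test over the 4 arrays, two-sided p = 0.667, where 0.333 is the smallest p that 6 arrangements allow, so that this p shows no likeness). It was -0.84 with a constant of 64, 0.30 with a constant of 1 and 0.03 without AMH replicate 2.

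Profiles were also compared across the 4 arrays, by the root mean square difference of log2 values centred on each gene's own mean. Over 4 arrays in 2 groups this measure mostly picks genes that fell by the same amount. The 5 genes nearest to Gdf9 among 10550 were Lamtor4 (0.093), Drap1 (0.12), Rabac1 (0.14), Fbxo15 (0.15) and Hdac1 (0.15), all in log2 units. Fbxo15, an F-box gene, gave 5.4 and 2.2 with AMH, against 88.7 and 84.2 in control, so its AMH values are below the dim limit and its place depends on the constant. The same holds for every likeness to Bmp15. With the constant of 16, the 5 nearest to Bmp15 were Laptm4a (0.04), Asf1a (0.048), Lage3 (0.05), Lin37 (0.051) and Pllp (0.067).

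Other oocyte genes on the same arrays did not all follow the ligands. Of 32 listed oocyte genes other than the members, 13 were found by symbol and 12 were tested: 6 were called lower, 1 higher and 5 neither, with a median log2 difference of -0.50, against 0.07 over all tested genes, of which 22.9% were called, 11.9% lower and 11% higher. Zp3, which encodes a zona pellucida protein, gave 2721.8 and 1977.8 in the AMH pools, against 2531.1 and 2133.5 in the control pools. The groups overlapped, and the log2 difference was -0.0022 ± 0.18 (95% interval -0.42 to 0.42). Zp2, another zona gene, gave -0.0038 ± 0.17 and Tle6, part of the subcortical maternal complex, gave -0.02 ± 0.14, with 1524.8 and 1602.1 in the AMH pools, against 1537.8 and 1632 in the control pools. The signs of these 3 differences turned positive with the arrays centred on their median. Zp1 (-0.40 ± 0.33) and Btg4 (0.35 ± 0.26) were not called either, and turned sign to 0.01 without AMH replicate 2 and to -0.01 with scaling to hybridization controls. The summed intensity of the 12 genes was 9638 and 10427 in the AMH pools, against 13218 and 12378 in the control pools. Most of that gap lay in Uchl1 and Ooep, described below. The mean of Uchl1 was 260.7 with AMH and 1986 in control, and that of Ooep was 1705 and 2594.

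Zp3 differed by close to 0, so Gdf9 minus Zp3 (-2.14) and Bmp15 minus Zp3 (-1.93) only restate the ligands' own differences, and the exact permutation test of each gave p = 0.333, the smallest possible. Zp3 was chosen with its values known, and other oocyte genes on the arrays fell. With all arrays centred on the mean log2 of the 12 other oocyte genes, Gdf9 gave -1.44 (adjusted p = 0.00152) and Bmp15 -1.23 (adjusted p = 0.00308) in the limma fit.

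Among the oocyte genes called lower, Uchl1, which removes ubiquitin and is plentiful in germ cells, had the largest fall: 300.2 and 221.1 in the AMH pools, against 2133.6 and 1837.4 in the control pools (-2.87 ± 0.18). Kit, the receptor for KIT ligand, gave 18.9 and 3.9 with AMH, against 75 and 45 in control (-1.50 ± 0.35, and -0.71 with 64 added). Both AMH values lay below the dim limit, and with them set to 27.8 Kit was at least 2.09-fold lower. Bcl2l10, a BCL2 family gene of oocytes, differed by -1.15 ± 0.25, the synaptonemal complex gene Sycp3 by -1.01 ± 0.24 and Ooep, of the subcortical maternal complex, by -0.61 ± 0.17. The call of Ooep was lost in 8 of 15 alternatives: without the filter (adjusted p = 0.0876), with median centring (0.0575), without the variance trend (0.0956), with probe sets averaged (0.0556), with the replicate block (0.0643), without either control array, and with oocyte gene centring, which gave 0.09 (0.732). Gja4, the connexin of the junctions between oocyte and granulosa cells, was the 1 gene called higher (0.70 ± 0.18, adjusted p = 0.0303). That call was lost without the filter (adjusted p = 0.0542 in the limma fit) and without the variance trend (0.0688). It was also lost with hybridization control scaling, which gave a difference of 0.23. The count of 6 lower fell to 3 without control replicate 1, which ended the calls of Kit (adjusted p = 0.131), Sycp3 (0.118) and Ooep (0.291), and to 4 without control replicate 2, which ended those of Bcl2l10 (0.103) and Ooep (0.0815). The call of Gja4 ended without either control array (0.194 and 0.0787). With a control array left out, the residual spread comes from the AMH arrays alone, whose log2 values differed with an SD of 0.43, against 0.32 for the control arrays.

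Of 7 transcription factors that act on Gdf9 or Bmp15 or on oocyte genes at large, 2 were tested. Sohlh1, a helix-loop-helix factor of early oocytes, gave 75.9 and 35.5 in the AMH pools, against 248.5 and 218.8 in the control pools. Its groups did not overlap, and the log2 difference was -1.86 ± 0.28 (adjusted p = 0.00402). Taf4b, a TFIID subunit of the gonads, gave 124 and 95.6 with AMH, against 110.3 and 105.4 in control (0.01 ± 0.21), and took either sign across the alternatives. Figla, Nobox, Sohlh2, Lhx8 and Nr6a1 were not analysed here.

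**Figure D3:**
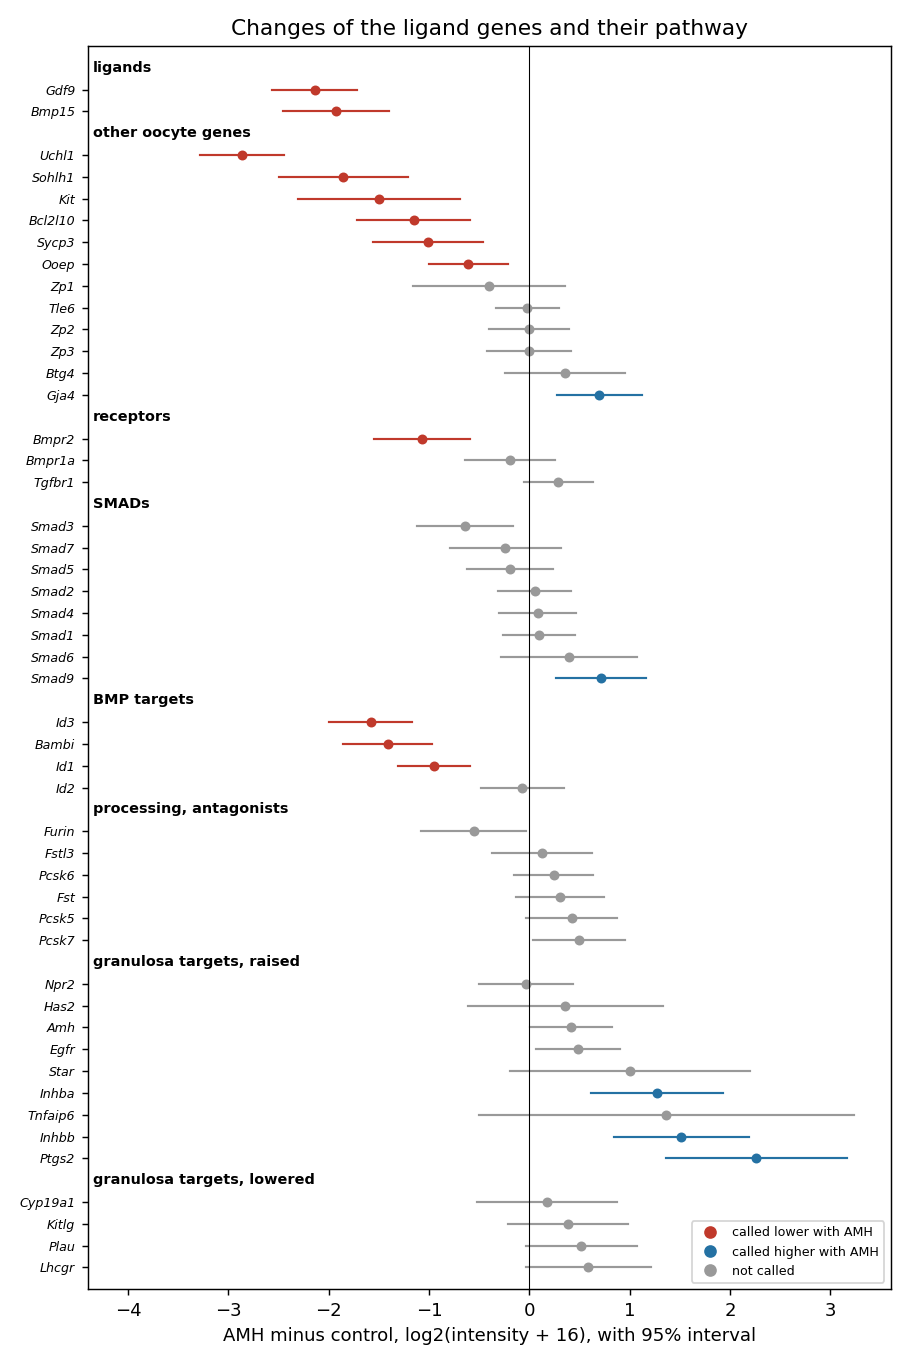
Log2 differences, AMH over control with 16 added to each intensity, and their 95% intervals, for Gdf9, Bmp15 and the tested genes of their pathway, grouped by role (genes of several lists are drawn once), with called genes in red (lower) or blue (higher) and the others in grey. The ligands lie at -2.14 and -1.93, and the receptors and SMADs, each at its brightest probe set, lie between -1.07 and 0.71. Dimmer probe sets are not drawn, and those tested for Smad5 ran from -1.92 to 0.22.

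One receptor gene of the ligands fell and the others did not pass. Bmpr2, the type II receptor of GDF9 and BMP15, gave 66.4 and 83.8 in the AMH pools, against 158.5 and 191.7 in the control pools, with no overlap (-1.07 ± 0.21, adjusted p = 0.0102, but 0.0781 without control replicate 2). Tgfbr1, the type I receptor of GDF9, gave 588.2 and 613.8 with AMH, against 464.7 and 514.4 in control (0.29 ± 0.15), and -0.18 with hybridization control scaling. Bmpr1a, a type I receptor for BMPs, gave -0.19 ± 0.20, and 0.03 without AMH replicate 2. Neither of these passed, and Bmpr1b and Acvr1b were not analysed here. Over the 3 tested receptor genes 1 was called lower and 0 higher, with a median of -0.19, against 11.9% lower and 11% higher over all tested genes.

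Of 8 SMAD genes, 1 was called higher and 0 lower at the brightest probe set, with a median of 0.07. Over all tested genes 11% were called higher, so 1 of 8 is near the background. Smad9, an effector of BMP15, gave 208.4 and 167.5 in the AMH pools, against 111.4 and 104 in the control pools (0.71 ± 0.19, adjusted p = 0.0341). That call was lost in 5 of 15 alternatives: without the filter, with hybridization control scaling (0.383), and without AMH replicate 1, control replicate 1 or control replicate 2. Smad3, an effector of GDF9, gave 356.9 and 232.6 with AMH, against 463.4 and 454.7 in control, and did not pass (-0.64 ± 0.21, adjusted p = 0.0621), with -0.93 (adjusted p = 0.00331) without AMH replicate 1 and -0.35 (0.126) without AMH replicate 2. Dimmer probe sets of Smad1 (-1.14), Smad4 (-1.07), Smad5 (-1.92 and -0.83) and Smad6 (-1.13) were called lower while the brightest of each gene was not, and their part in the reading of these genes was not tested.

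Genes that BMP-activated SMADs are known to induce gave 3 falls and 0 rises among 6 tested, with a median of -0.59, against 11.9% lower and 11% higher over all tested genes. Without AMH replicate 1, 1 was also called higher. Id3, an inhibitor of helix-loop-helix factors, gave 715.6 and 759.1 in the AMH pools, against 2648 and 1892.9 in the control pools (-1.58 ± 0.18). Bambi, a decoy receptor, differed by -1.41 ± 0.19, and Id1 by -0.95 ± 0.16, a call lost without control replicate 1 (adjusted p = 0.0646). Id2 gave -0.07 ± 0.18 at its brightest probe set and -2.89 at a dimmer one. These genes respond to BMPs from any cell, and the ovary has several such ligands besides BMP15.

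Enzymes that cut the ligand precursors and proteins that bind the ligands were not called. Of 7 such genes 6 were tested, 0 passed in either direction (limma), and the median log2 difference was 0.27. Over all tested genes the median was 0.07, with 11.9% called lower and 11% higher, so 0 of 6 is near that share. The 2 probe sets of Fst ran opposite ways, with 0.31 at the brightest and -0.51 (limma, adjusted p = 0.0567) at the other. The other gave 353 and 347.8 in the AMH pools, against 555.6 and 462.6 in the control pools. Furin, a proprotein convertase, gave 164.9 and 119.7 in the AMH pools, against 253 and 180.7 in the control pools. Its groups did not overlap, but the difference did not pass (-0.55 ± 0.23, adjusted p = 0.12), and it ranged from -0.78 to -0.33 with an array left out. It passed without AMH replicate 1 (-0.76, adjusted p = 0.0357) and with hybridization control scaling (0.0168), and gave -0.35 (0.28) without AMH replicate 2 and -0.33 (0.593) without control replicate 1.

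Granulosa cell genes that GDF9 or the oocyte has been reported to raise, mostly in mouse, gave 3 calls higher and 0 lower among 9 tested of 12, with a median of 1.01, against 11% higher and 11.9% lower over all tested genes. Of those left out as dim, Slc38a3, an amino acid transporter, gave 1.9 and 1.7 with AMH, against 11.2 and 17.5 in control, and Grem1, a BMP antagonist, gave 60.5 and 35.3 with AMH, against 3.9 and 10.1 in control. Ptgs2, the inducible prostaglandin synthase that GDF9 induces in mouse granulosa cells, gave 553.7 and 215.1 in the AMH pools, against 45.7 and 76.5 in the control pools (2.26 ± 0.39). Inhbb and Inhba, which encode activin and inhibin subunits, gave 1.51 ± 0.29 and 1.27 ± 0.29. The value of Inhbb was 0.99 without AMH replicate 1, and Inhba lost its call without control replicate 2 (adjusted p = 0.0556) and with hybridization control scaling (0.0697). Has2, which makes the hyaluronan of the expanding cumulus, gave 66.1 and 66.5 with AMH, against 22.3 and 91.4 in control, and the natriuretic peptide receptor gene Npr2 gave 143.5 and 141.3, against 125.4 and 169.7. Both overlapped between groups, and neither passed (0.36 ± 0.43 and -0.03 ± 0.20).

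Genes that GDF9 is reported to hold down in granulosa cells gave 0 calls in either direction among 4 tested of 6, with a median of 0.45. Over all tested genes the median was 0.07, with 11.9% called lower and 11% higher, so 0 of 4 is near that share. The luteinising hormone receptor gene Lhcgr gave 58.4 and 40.6 in the AMH pools, against 32.3 and 22.6 in the control pools (0.59 ± 0.27, adjusted p = 0.157). Plau, urokinase, gave 99.2 and 154 with AMH, against 88.6 and 75.6 in control (0.52 ± 0.24, adjusted p = 0.162). Both were higher in each AMH pool than in each control, as were 32.2% of all tested probe sets, and neither passed. A dimmer probe set of Plau ran the other way, with 20.8 and 26.3 in the AMH pools, against 32.4 and 40.5 in the control pools (-0.41). Kitlg, KIT ligand, gave 0.38 ± 0.26 and the aromatase gene Cyp19a1 0.18 ± 0.31. Plau gave 0.80 (adjusted p = 0.0285) without AMH replicate 1 and 0.23 (0.488) without AMH replicate 2. Kitlg gave 0.75 (0.0255) without AMH replicate 1 and 0.02 (0.963) without AMH replicate 2.

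Mouse oocytes promote glycolysis and cholesterol synthesis in cumulus cells, in part through these ligands. Over all tested genes 11% were called higher and 11.9% lower, which is the share to set beside the counts here. Of 5 tested glycolytic genes, Pfkp, a phosphofructokinase, was called higher (1.23 ± 0.23) and Tpi1, triose phosphate isomerase, lower (-0.77 ± 0.14, though not without control replicate 1, adjusted p = 0.0805, or control replicate 2, 0.064). Without AMH replicate 1, 2 were called lower. Of 6 tested genes of cholesterol synthesis, 1 was called higher and 0 lower (1 lower without AMH replicate 1), with a median of 0.13. The gene called higher was Cyp51, lanosterol demethylase (0.68 ± 0.18). Its call was lost in 6 of 15 alternatives, among them hybridization control scaling (adjusted p = 0.517 in the limma fit) and those without either control array. The other tested probe set of Cyp51 gave 0.17 (limma, adjusted p = 0.581). It read 200 and 144.6 in the AMH pools, against 147.9 and 150.3 in the control pools, and the groups overlapped.

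Markers of other ovarian cell types were set beside the ligands. Of 13 granulosa markers 3 were called higher and 0 lower, namely Inhbb, Inhba and Amhr2, the AMH receptor gene (0.70 ± 0.21). The call of Amhr2 was lost in 8 of 15 alternatives, and its difference was 0.45 without control replicate 2. The summed intensity of the granulosa markers was 8894 and 6205 in the AMH pools, against 5074 and 4275 in the control pools. The share over all tested genes was 11% higher and 11.9% lower, the count higher was 5 without AMH replicate 1 and 1 without control replicate 2, and a dimmer probe set of Wt1 was called lower (-1.10). Of 8 theca and stroma markers 1 was higher (Pdgfra, 0.67 ± 0.16, lost without either control array, adjusted p = 0.187 and 0.0696) and 2 lower (Col1a1, -3.00 ± 0.27 with -0.54 at its other probe set, and Col1a2, -1.27 ± 0.29 but -0.75 without AMH replicate 1 and -0.46, not called, at its other probe set), with sums of 9501 and 11950 in the AMH pools, against 14652 and 13558 in the control pools. Those counts were 2 higher without AMH replicate 1, 3 higher and 4 lower without AMH replicate 2 and 0 higher without control replicate 2. Of 7 leukocyte markers 1 was higher (Cd68, 1.04 ± 0.21, lost without control replicate 2, adjusted p = 0.0893), with sums of 757.6 and 2239 in the AMH pools, against 1171 and 1010 in the control pools. This count depends on the AMH array kept, with 4 called higher without AMH replicate 1 and 3 called lower without AMH replicate 2. Of 4 endothelial markers none was called, with sums of 809.4 and 980.9 in the AMH pools, against 837.5 and 863.8 in the control pools. Of 2 red cell markers 1 was lower (Hbb, -3.88 ± 0.22), with sums of 100.3 and 84.5 in the AMH pools, against 1406 and 1218 in the control pools, and both were lower without AMH replicate 2. Of 5 smooth muscle markers 2 were lower (Acta2, -1.19 ± 0.24, lost without control replicate 1, adjusted p = 0.127, and Des, -1.02 ± 0.20, lost without control replicate 2, 0.0995), with sums of 224.9 and 369.9 in the AMH pools, against 489.1 and 445.3 in the control pools, and 1 was called higher without AMH replicate 1. Leukocyte and endothelial sums of the AMH pools lay on both sides of the controls. Granulosa sums were higher in both AMH pools, while oocyte, theca and stroma, red cell and smooth muscle sums were lower in both. Most of the gap in the oocyte sums lay in Uchl1 and Ooep, and Zp2, Zp3 and Tle6 overlapped between the groups. The part of these shifts in the fall of Gdf9 and Bmp15 was not tested.

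**Figure D4:**
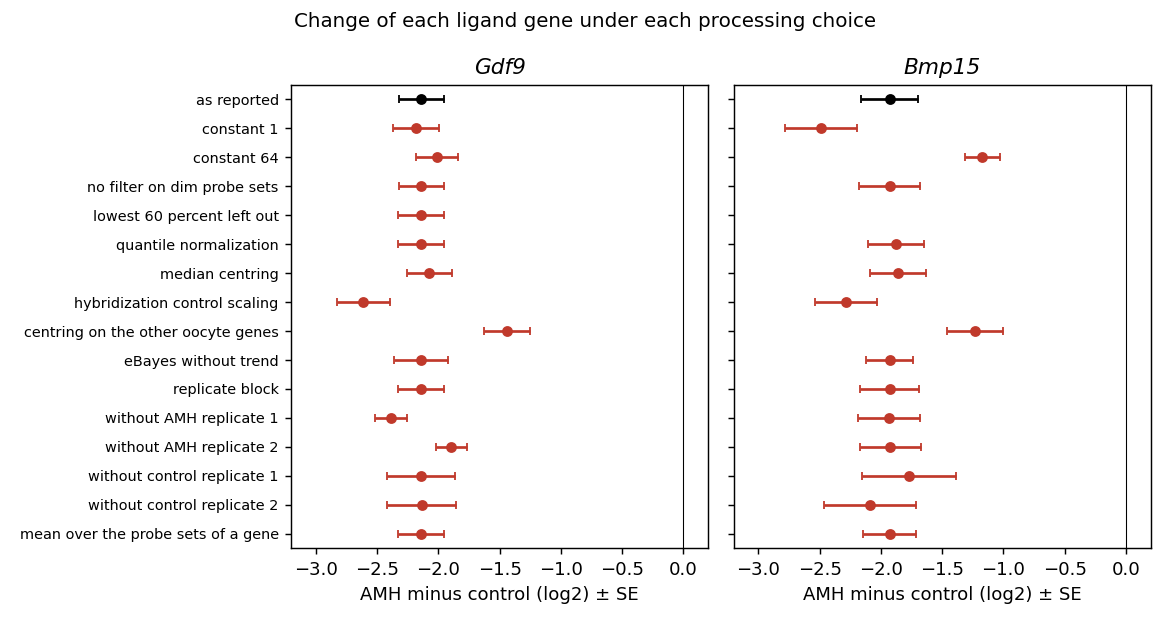
Log2 difference, AMH minus control, of Gdf9 and Bmp15 with its standard error for the analysis as reported (black) and each processing alternative (red). Gdf9 lies between -2.61 and -1.44 and Bmp15 between -2.49 and -1.17, and Bmp15 has no value where the dimmest 60% were left out.

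The calls of both ligand genes held under each alternative in which they were tested. Gdf9 passed in 15 of 15, with adjusted p between 1.23e-05 and 0.00361. Bmp15 passed in 14 of 14, with adjusted p between 0.000388 and 0.00856. Leaving out a single array gave -2.39 to -1.89 for Gdf9 and -2.09 to -1.77 for Bmp15.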

How the data were processed

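Affymetrix arrays of 4 RNA pools (2 AMH, 2 control) were used. The authors deposited 1 table of probe set intensities on a linear scale; the method of summary was not given in the sources used here. Trimmed by 2 percent at each end, the mean intensity was 125.03 on every array, which shows scaling per array. Depth does not apply to arrays, and their number limits precision. Groups came from the titles. Probe sets with a mean log2(intensity + 16) in the lowest 40 percent and 57 Affymetrix controls were left out, and the fold changes understate those of dim probe sets. The groups were compared by limma 3.58.1 under R 4.3.3 (lmFit and trended eBayes, 2 residual and 6.33 prior degrees of freedom), two-sided, Benjamini-Hochberg adjusted over 18625 probe sets, and tested on simulated data. P-values rest on the spread pooled over probe sets. Symbols are those of the platform annotation. The members, the 16 gene lists and the tests were chosen with earlier results of these data known. Named genes are the members, any gene of the oocyte and pathway lists, and of the other lists the 2 highest and 2 lowest by moderated statistic (of glycolysis, cholesterol and cell type lists only those called), and for each member the 5 genes with the most similar profile. Inhba among the granulosa targets and Amhr2 (to complete a count), Slc38a3 (left out as dim) and Wt1 (a dimmer probe set) fall outside that rule and were named after their values were seen. Alternatives changed the constant (1, 64), the filter (none, 60 percent), the scaling, the variance prior and the replicate block, averaged the probe sets of a gene, or left out an array. A gene is taken at its brightest probe set. The 9 hybridization control probe sets served 1 alternative scaling.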

Additional observations from a re-analysis of the deposited data

How the results depend on the processing

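Both ligand genes stayed lower and called in the 15 (Gdf9) and 14 (Bmp15) alternatives that tested them, while the number of probe sets called in all depended on the arrays. As reported it was 3999. It was 11467 with the arrays centred on the other oocyte genes (696 lower and 10771 higher, since that moves the median difference to 0.72) and 1381 to 5131 with a single array left out, the lowest without control replicate 1 and 1889 without control replicate 2. The share of calls that were lower was 59.6% as reported, 97.2% with hybridization control scaling (median difference -0.39), 6.07% with oocyte gene centring and 75.8% without control replicate 1. The replicate numbers are shared by the groups, but same-numbered arrays did not deviate together (correlation -0.00082 across probe sets); with the replicate number as a block 3566 probe sets were called, Gdf9 gave -2.14 (adjusted p = 0.000787) and Bmp15 -1.93 (0.0024), and Ooep (0.0643) and Amhr2 (0.0642) lost their calls. Bmp15 was not tested with the lowest 60% left out. Gdf9 minus Bmp15 turned to 0.302 with a constant of 1, was -0.841 with 64, and ranged from -0.451 to 0.0307 with a single array left out. Some signs also turned. Centring adds the same amount to every gene, 0.697 on the other oocyte genes and 0.065 on the median, and hybridization control scaling moved the named genes by -0.482 to -0.302, so turns under these settings say where a gene stood to begin with and nothing further about it. With oocyte gene centring Zp1 gave 0.296, Zp2 0.693, Zp3 0.695, Tle6 0.678, Ooep 0.0896, Furin 0.143, Bmpr1a 0.505, Smad3 0.0554 and Npr2 0.664. With quantile normalization Zp2 gave 0.108, Zp3 0.119 and Npr2 0.0194, and with median centring Zp2 gave 0.0613, Zp3 0.0630, Tle6 0.0458 and Npr2 0.0323. With hybridization control scaling Btg4 gave -0.0148, Taf4b -0.410, Tgfbr1 -0.181 and Kitlg -0.0660. With a single array left out Zp1 ranged from -0.816 to 0.0137, Zp2 from -0.232 to 0.224, Zp3 from -0.231 to 0.227, Tle6 from -0.0617 to 0.0232, Taf4b from -0.150 to 0.177, Bmpr1a from -0.411 to 0.0266, Npr2 from -0.229 to 0.164, Has2 from -0.384 to 1.10 and Cyp19a1 from -0.151 to 0.505. The cause of the turns under quantile normalization was not tested, and those with an array left out rest on the arrays kept. The fitted value for Bmp15, near the floor with AMH, depends on the constant. The bound of at least 4.69-fold adds no constant to the intensities of Bmp15. Its limit of 27.8 still comes from the filter of 40 percent on values with 16 added. With oocyte gene centring 2 of the 12 other oocyte genes were called lower, against 6 as reported.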
